A study of Mus musculus with 4 samples.

Results

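The receptors through which myeloid cells read colony-stimulating factors and the cytokines IL-6, IL-4, IL-10 and interferon-gamma were followed on 4 whole-genome mouse expression arrays. The set held 10 genes of the 18194 with a probe set of their own: Csf1r, Csf2ra, Csf2rb, Csf2rb2, Csf3r, Il6ra, Il6st, Il4ra, Il10ra and Ifngr1. They were chosen by function, with a rule that uses no measured value, though earlier results of these data were known at the time. Every probe set annotated to only one of these symbols was taken, which gave 22 probe sets. Of these genes, 3 had 1 probe set, 3 had 2, 3 had 3 and Il6st had 4.

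All 4 arrays measured RNA of C57BL/6 mouse bone marrow cells that were turned into myeloid-derived suppressor cells (MDSC) by 4 days of culture with GM-CSF and IL-6, and each culture carried a lentivirus. kdLNC received a virus with a short hairpin RNA against lncMDSC, the long noncoding RNA that the study's article calls lnc-C/EBPβ, and kdNC received the matching control hairpin virus. oeLNC received a virus that overexpresses lncMDSC, and oeNC received the matching overexpression control virus. Each group was 1 array, so no replicate error and no test exist, and every difference below compares 2 arrays and not 2 conditions. The level of lncMDSC itself was not analysed here, so the knockdown and the overexpression were not checked. Cultures without a virus or without the cytokines were not analysed here.

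GM-CSF binds a receptor made of its own alpha chain, encoded by Csf2ra, and a beta chain, encoded by Csf2rb, that the IL-3 and IL-5 receptors share. Mice carry a second beta chain gene, Csf2rb2, which serves IL-3. IL-6 binds the alpha chain encoded by Il6ra, and this pair then recruits gp130, the signalling chain encoded by Il6st that the whole IL-6 family uses. These chains have no kinase domain and signal through bound Janus kinases and STAT factors, whereas the receptor for M-CSF encoded by Csf1r is itself a tyrosine kinase. In the bone marrow GM-CSF, G-CSF and M-CSF drive the making of granulocytes and macrophages, and GM-CSF with IL-6 is a common recipe for MDSC in culture.

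All values are log2 of the deposited normalised intensity unless an intensity is named, and a difference is the log2 value of the first array minus that of the second. Levels are compared between arrays for 1 probe set and never between probe sets. A probe set passed the filter on dim signals when its mean over the 4 arrays was above 4.20, the median of such means, and 19 of the 22 passed, with every gene among them. The brightest probe set of a gene is the one with the highest mean. As a yardstick in place of a replicate error, each difference was set beside the SD of the difference between the 2 control arrays over the 500 probe sets nearest in level, which ran from 0.30 to 0.64 for these probe sets. That SD holds the effect of the different control viruses and cultures as well as technical error.

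Array medians lay between 4.17 and 4.24. Across the 19207 probe sets past the filter kdNC and kdLNC correlated at r = 0.987, oeNC and oeLNC at 0.980, and the control arrays kdNC and oeNC at 0.949. The log2 ratio of the 3′ to the 5′ probe set of beta-actin, a sign of RNA integrity, was 1.61 on kdNC and 1.96 to 1.97 on the other arrays. That of Gapdh was 0.51 on kdNC, 0.69 on kdLNC, 0.53 on oeNC and 0.65 on oeLNC, lower on the control array in both pairs, and the part of RNA integrity in the differences was not tested. Of the 8 MDSC markers listed, 5 were measured, and Itgam, the CD11b chain that marks myeloid cells, read 8.41 to 9.03 on the arrays, whereas Ly6c1, Ly6c2 and Ly6g, which mark the MDSC subsets, were not analysed here. Arg1, the arginase of MDSC, read 8.80 on kdNC, 10.5 on kdLNC, 11.2 on oeNC and 10.4 on oeLNC, lowest on kdNC. The other measured markers varied less, with S100a8 and S100a9 at 13.3 to 13.5 and Nos2 at 5.63 to 6.43.

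The stretches of DNA just before the start of these genes are shown because C/EBP, STAT and PU.1 factors are known to drive myeloid receptor genes. RefSeq promoter windows of GRCm38.p6 were given for 7 of the 10 genes, and the 250 bases before the start were searched on both strands for TTGCNNAA (C/EBP), TTCNNNGAA (STAT) and GAGGAA (PU.1). The C/EBP letters were in 0 of the 7 windows and in 9.56% of all 32851 windows. The STAT letters were in 1 of the 7 windows and in 7.02% of all, and the PU.1 letters were in 4 of the 7 and in 23.3% of all. The windows with a match are printed 5′ to 3′ on the strand of the gene, with matches on either strand in capitals. They are Il6ra at chr3:89913197-89913446 on the minus strand, Csf3r at chr4:126024409-126024658 on the plus strand, Csf2rb2 at chr15:78305722-78305971 on the minus strand and Csf2ra at chr19:61228419-61228668 on the minus strand.
Il6ra: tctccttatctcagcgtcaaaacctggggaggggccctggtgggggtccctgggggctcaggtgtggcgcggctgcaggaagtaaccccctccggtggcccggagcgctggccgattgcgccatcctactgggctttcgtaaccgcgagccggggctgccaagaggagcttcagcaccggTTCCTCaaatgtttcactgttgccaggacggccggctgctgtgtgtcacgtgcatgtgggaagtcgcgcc
Csf3r: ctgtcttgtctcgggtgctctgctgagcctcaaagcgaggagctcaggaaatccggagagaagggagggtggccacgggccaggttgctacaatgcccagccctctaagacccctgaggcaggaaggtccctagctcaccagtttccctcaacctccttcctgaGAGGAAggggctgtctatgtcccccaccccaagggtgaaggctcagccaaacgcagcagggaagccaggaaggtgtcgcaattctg
Csf2rb2: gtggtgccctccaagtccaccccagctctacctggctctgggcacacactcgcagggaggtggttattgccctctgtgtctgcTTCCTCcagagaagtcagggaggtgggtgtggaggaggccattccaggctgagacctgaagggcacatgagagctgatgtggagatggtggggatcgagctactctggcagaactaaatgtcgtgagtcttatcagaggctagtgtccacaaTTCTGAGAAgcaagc
Csf2ra: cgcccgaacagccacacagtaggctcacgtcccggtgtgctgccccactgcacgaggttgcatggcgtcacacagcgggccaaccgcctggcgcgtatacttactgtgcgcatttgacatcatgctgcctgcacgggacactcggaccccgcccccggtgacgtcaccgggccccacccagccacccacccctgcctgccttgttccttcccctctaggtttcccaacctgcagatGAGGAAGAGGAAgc
In the Csf2ra window the capitals are 2 adjoining PU.1 matches, and in the Csf2rb2 window the shorter run is the PU.1 match and the longer one the STAT match. The PU.1 match of Il6ra and that of Csf2rb2 are on the opposite strand and read TTCCTC. The Il4ra, Ifngr1 and Il6st windows held none of the searched letters. A match describes the letters only, and no binding was measured.

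No receptor differed by 1.5-fold between the kdLNC array and its control array kdNC. Among the probe sets of these genes 0 reached 1.5-fold in the higher direction on kdLNC and 0 in the lower, beside 3.16% of all tested probe sets higher and 1.67% lower. Counted by gene at the brightest probe set it was also 0 and 0, beside 2.25% of all genes higher and 1.84% lower. On the arrays of the overexpression pair 0 probe sets were at least 1.5-fold higher in oeLNC, beside 3.14% of all, and 2 were lower, beside 6.96% of all. By gene these counts were 0, beside 3.23%, and 1, beside 5.26%. The probe sets that were lower belonged to Il10ra and Il6st. Counts this small among the 19 probe sets past the filter lie near the shares over all tested probe sets.

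**Figure D1:**
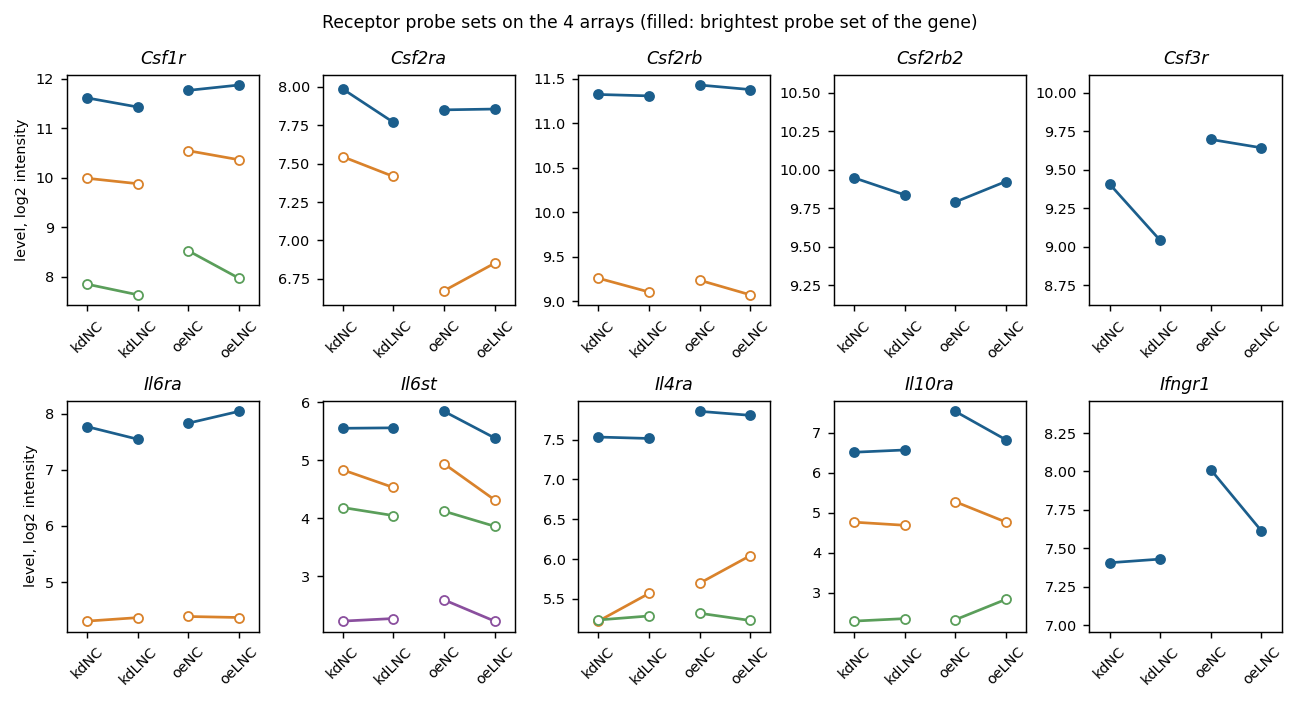
log2 intensity of each probe set of the 10 receptor genes (vertical axis, own scale in each panel) on the 4 arrays, 1 point per array. Filled points are the brightest probe set, open points the others, and lines join the 2 arrays of a pair. The brightest Il10ra probe set stands at 7.54 on oeNC and at 6.51 to 6.83 on the other arrays, and that of Csf2rb lies between 11.31 and 11.43 on all of them.

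Of the receptors for colony-stimulating factors, those of GM-CSF kept within 0.22 of their controls in both pairs. The brightest Csf2rb probe set, for the shared beta chain, read 11.32 on kdNC, 11.31 on kdLNC, 11.43 on oeNC and 11.38 on oeLNC. The second Csf2rb probe set read 9.26, 9.11, 9.24 and 9.07 in the same order of arrays. Both gave small negative differences in both pairs, of -0.016 and -0.15 for knockdown and of -0.051 and -0.16 for overexpression.

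The single Csf2rb2 probe set, for the beta chain of IL-3, read 9.95 on kdNC, 9.84 on kdLNC, 9.79 on oeNC and 9.92 on oeLNC. Its differences were -0.11 in the knockdown pair and 0.13 in the overexpression pair, against a control SD of 0.53 at that level. For Csf2ra, the chain that binds GM-CSF, the brightest probe set read 7.98, 7.77, 7.85 and 7.85 and the other read 7.54, 7.42, 6.67 and 6.85. Both Csf2ra probe sets were lower on kdLNC than on kdNC, with differences of -0.22 and -0.13, and differed by 0.0054 and 0.18 in the overexpression pair. The second Csf2ra probe set was also 1.83-fold lower on oeNC than on kdNC, a difference of -0.87, whereas the brightest differed by -0.14.

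Csf3r, the G-CSF receptor of neutrophils and their precursors, gave the largest knockdown difference of the 10 genes. Its single probe set read 9.41 on kdNC, 9.04 on kdLNC, 9.70 on oeNC and 9.64 on oeLNC, which are intensities of 679, 527, 830 and 799. The kdLNC array was the lowest of the 4, 1.29-fold below kdNC. The difference of -0.37 lay within the control SD of 0.58, and that of the overexpression pair was -0.054. Over all tested probe sets the knockdown pair itself had a narrower SD of 0.29, which the Csf3r difference exceeded in size. Some neutrophil markers were lower with it: of the 12 mature neutrophil genes listed, 10 were measured, and 6 of these were at least 1.5-fold lower on kdLNC, beside 1.84% of all genes. The other 4, Lcn2, Mmp8, S100a8 and S100a9, gave small positive differences of 0.12, 0.11, 0.098 and 0.047, and the median of the 10 was -0.90. Their summed intensity was 46576 on kdNC, 39441 on kdLNC, 51027 on oeNC and 47616 on oeLNC. The 6 early neutrophil genes had a knockdown median of -0.50, with 2 at least 1.5-fold lower. The 5 measured eosinophil genes had a knockdown median of -1.07, with 4 at least 1.5-fold lower. The part of these lists in the Csf3r value was not tested. In RNA of a whole culture, fewer cells of a type and less RNA per cell cannot be told apart.

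Csf1r, the M-CSF receptor of monocytes and macrophages, had 3 probe sets that did not move together. The brightest read 11.61 on kdNC, 11.43 on kdLNC, 11.77 on oeNC and 11.87 on oeLNC, the second 9.99, 9.88, 10.54 and 10.36, and the third 7.85, 7.63, 8.52 and 7.97. All 3 were lower on kdLNC than on kdNC, with differences of -0.18, -0.11 and -0.21. In the overexpression pair the brightest gave 0.11, the second -0.18 and the third -0.55, a 1.47-fold lower value. The third probe set was 1.60-fold higher on oeNC than on kdNC. Of the 12 monocyte and macrophage genes listed, 10 were measured, with a median difference of -0.031 in the knockdown pair and -0.098 in the overexpression pair. Their summed intensity was 8535 on kdNC, 7898 on kdLNC, 12107 on oeNC and 11663 on oeLNC, both oe arrays above both kd arrays as for all Csf1r probe sets. Their part in the Csf1r values was not tested.

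The receptor for IL-6, a cytokine added to every culture, showed opposite signs for Il6ra. The brightest Il6ra probe set read 7.77 on kdNC, 7.55 on kdLNC, 7.83 on oeNC and 8.05 on oeLNC. It was lowest on kdLNC and highest on oeLNC, with differences of -0.22 and 0.21 against a control SD of 0.60. The second Il6ra probe set, a dim one, read between 4.30 and 4.38 and gave 0.062 and -0.018.

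Il6st, the shared signalling chain gp130, was lower on oeLNC at its 4 probe sets. The brightest read 5.55 on kdNC, 5.56 on kdLNC, 5.85 on oeNC and 5.39 on oeLNC, a difference of -0.46 in the overexpression pair. The second read 4.84, 4.53, 4.94 and 4.32, a difference of -0.62 or 1.54-fold. This difference lay beyond the control SD of 0.51, at an intensity of 19.9 on oeLNC against 30.7 on oeNC. The third and the fourth, both too dim for the filter, gave -0.26 and -0.37. In the knockdown pair the 4 values were 0.0077, -0.30, -0.14 and 0.045.

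Il10ra, the IL-10 binding chain of the receptor that restrains inflammatory genes in myeloid cells, gave the largest difference of all member genes. Its brightest probe set read 6.51 on kdNC, 6.57 on kdLNC, 7.54 on oeNC and 6.83 on oeLNC, which are intensities of 91.3, 94.9, 186 and 114. The oeNC array stood above the other 3, and oeLNC lay 1.64-fold below it at -0.71, beyond the control SD of 0.61. The 2 kd arrays differed by 0.057. The second Il10ra probe set read 4.76, 4.69, 5.28 and 4.77 and was likewise highest on oeNC, with -0.51 in the overexpression pair. The other, too dim for the filter, gave 0.51 in that pair, from 2.32 on oeNC to 2.83 on oeLNC.

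Ifngr1, the interferon-gamma binding chain, had the same shape as Il10ra. It read 7.41 on kdNC, 7.43 on kdLNC, 8.01 on oeNC and 7.61 on oeLNC, with 0.024 in the knockdown pair and -0.40 or 1.32-fold in the overexpression pair. This lay within the control SD of 0.62. Il4ra, the chain that IL-4 and IL-13 share, read 7.53, 7.51, 7.85 and 7.80 at its brightest probe set, with differences of -0.018 and -0.050. The second Il4ra probe set read 5.22, 5.57, 5.70 and 6.04 and gave 0.35 in both pairs, and the third gave 0.050 and -0.091.

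**Figure D2:**
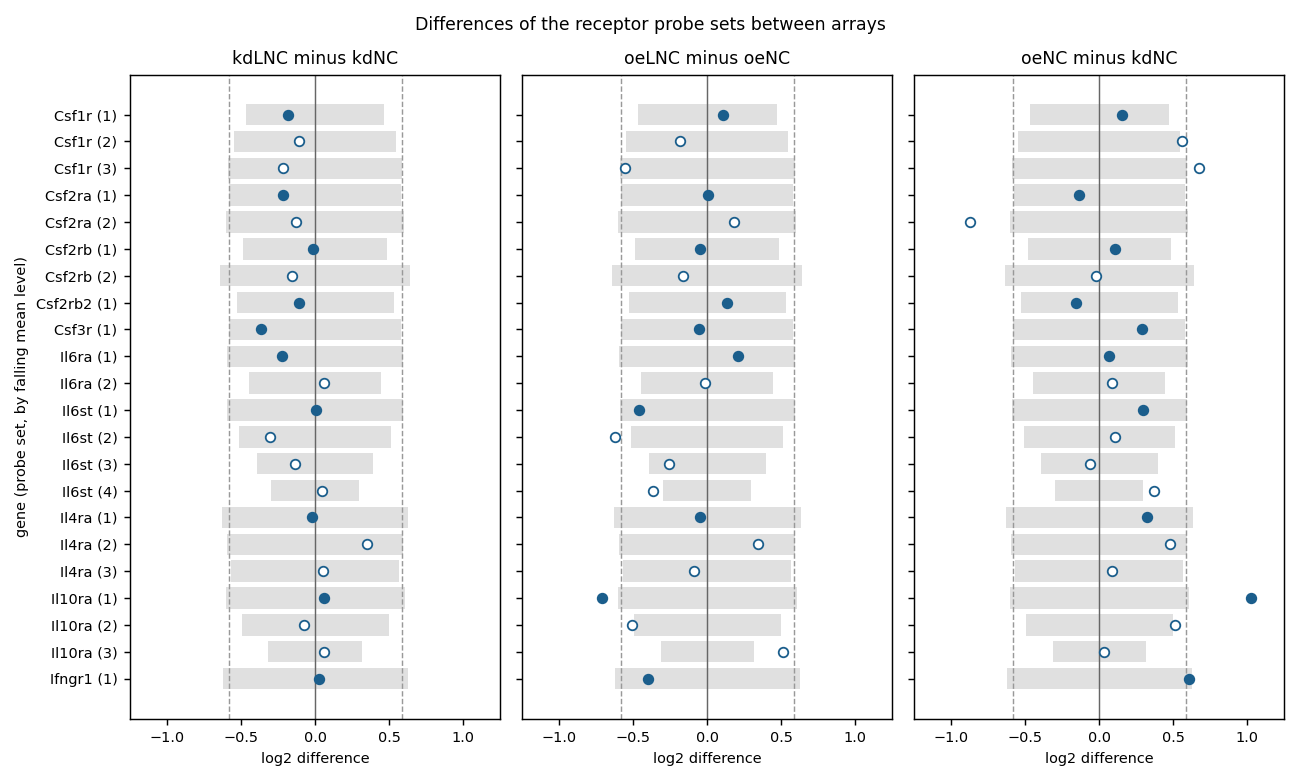
log2 difference (horizontal axis) of each probe set of the 10 receptor genes in the knockdown pair, the overexpression pair and between the control arrays. Grey bars are 1 SD of the control difference over the 500 probe sets nearest in level and dashed lines mark 1.5-fold. All 22 points lie within the bars in the knockdown pair, 17 in the overexpression pair and 16 between the control arrays. Over all tested probe sets the SD of the difference was 0.57 between the controls, 0.29 in the knockdown pair and 0.36 in the overexpression pair. The bars are thus wide for the pairs, and the share of all probe sets within such bars was not counted.

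Over the receptors as a group, medians were small and differences were of both signs in each pair. The largest difference was -0.37 in the knockdown pair, for Csf3r, and -0.71 in the overexpression pair, for Il10ra. The median knockdown difference over the 10 genes at their brightest probe sets was -0.064, with 3 positive and 7 negative, beside a median of -0.046 over all genes, of which 58.6% were negative. The median overexpression difference was -0.051, with 4 positive and 6 negative, beside -0.020 and 52.7% over all genes. In both pairs 3 of the 10 genes were lower in the array with altered lncMDSC and 0 were higher. Opposite signs in the 2 pairs were found for 7 genes: 4, with Il6ra among them, were lower with knockdown and higher with overexpression, and 3 had the reverse. Among all genes 28.5% were lower in both, 16.7% higher in both, 29.9% lower with knockdown and higher with overexpression, and 23.9% the reverse. Probe sets of a gene often disagreed: of the 7 genes with several probe sets past the filter, all pointed the same way in 3 genes for knockdown and in 4 for overexpression.

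For Csf2rb, Csf2rb2, Il4ra, Il10ra and Ifngr1, at the brightest probe set, the control arrays differed from each other by more than the arrays of either pair did. The comparison of oeNC with kdNC shares an array with each of the pairs, so its values are set beside them and not counted as a further test. Of the member probe sets 3 were at least 1.5-fold higher on oeNC, beside 10.4% of all probe sets, and 1 was lower, beside 13.7%. By gene these were 2 beside 9.09%, namely Il10ra and Ifngr1, and 0 beside 12.2%. The control difference was 1.02 or 2.03-fold for Il10ra, 0.60 or 1.52-fold for Ifngr1, 0.32 for Il4ra, 0.29 for Csf3r and 0.15 for Csf1r at their brightest probe sets. Its median over the 10 genes was 0.22, with 8 positive, beside -0.038 over all genes. The highest of the 4 arrays was oeNC for 13 of the 22 probe sets and for 29.5% of all tested, and kdLNC for 0 of the 22 and for 25.1% of all. The lowest was kdLNC for 9 of the 22 and for 27.9% of all. Lists of some other blood cell types also set the controls apart. The median was -1.71 over the 5 measured of 7 eosinophil genes and -1.74 over 5 of 6 mast cell and basophil genes. Over 5 of 6 B cell genes it was -1.34. At the brightest probe sets Siglecf of the eosinophil list, at 0.091, and Hdc of the mast cell and basophil list, at 1.33, went the other way. Other lists had medians of 0.34 for megakaryocytes, 0.29 for MDSC markers, 0.17 for monocytes and macrophages and 0.11 for mature neutrophils. Those of early neutrophils, stromal cells, and T and NK cells were 0.020, -0.046 and -0.061. The part of these cell types in the receptor values was not tested, and the virus and the culture of the controls cannot be told apart.

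The genes around the receptors were taken from a list of 35, of which 33 were measured and 25 of them were bright enough for the filter. Counted at the brightest probe set of these 25, with knockdown 5 reached 1.5-fold upward and 1 downward, beside 2.25% and 1.84% of all genes. In the overexpression pair 2 were higher and 1 lower, beside 3.23% and 5.26%, and between the controls 5 were higher on oeNC and 7 lower, beside 9.09% and 12.2%. Those past the threshold in either pair by this count were all ligands. The 9 ligands past the filter, 5 positive and 4 negative with knockdown, had a median of 0.68, whereas the median over all 14 measured was -0.18. In the overexpression pair these medians were -0.090 and 0.19, so that their sign turned with the filter in both pairs. Csf2, which encodes GM-CSF, read 5.41 on kdNC, 6.40 on kdLNC, 4.57 on oeNC and 4.66 on oeLNC. Csf3, which encodes G-CSF, read 8.44, 9.58, 9.37 and 8.71. Both were highest on kdLNC, with knockdown differences of 0.99 and 1.15. Their receptors Csf2ra and Csf3r read lower there, at -0.22 and -0.37, both within a control SD of 0.58. Csf2rb, the other chain of the GM-CSF receptor, gave -0.016. For the ligands Il6, Il10 and Il13, also higher on kdLNC, the receptors Il6ra, Il10ra and Il4ra gave -0.22, 0.057 and -0.018 at their brightest probe sets. The eosinophil list had a median of -1.07 in the knockdown pair and the mast cell and basophil list -0.30, and their part in the ligand values was not tested.

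Il6 read 10.1, 10.8, 10.7 and 10.5, a knockdown difference of 0.68 that was 0.39, under the threshold, against the mean of both control arrays. Il13, a further ligand of Il4ra, read 6.40, 7.31, 6.28 and 6.04, a knockdown difference of 0.91. Il10 read 7.66, 8.45, 6.17 and 6.82 and differed from its own control by 0.79 with knockdown and 0.66 with overexpression, while the controls differed by -1.49. Against the mean of both controls these became 1.53 and -0.088, so the direction with overexpression turned. For Il10ra the controls differed the other way, by 1.02. The ligand Osm, of the IL-6 family, read 9.20, 8.58, 10.1 and 9.53 with -0.63 and -0.56, and Il4 had intensities of 174, 128, 109 and 163 with log2 differences of -0.44 and 0.59. Csf3 in the overexpression pair gave -0.66, opposite in sign to its knockdown value.

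**Figure D3:**
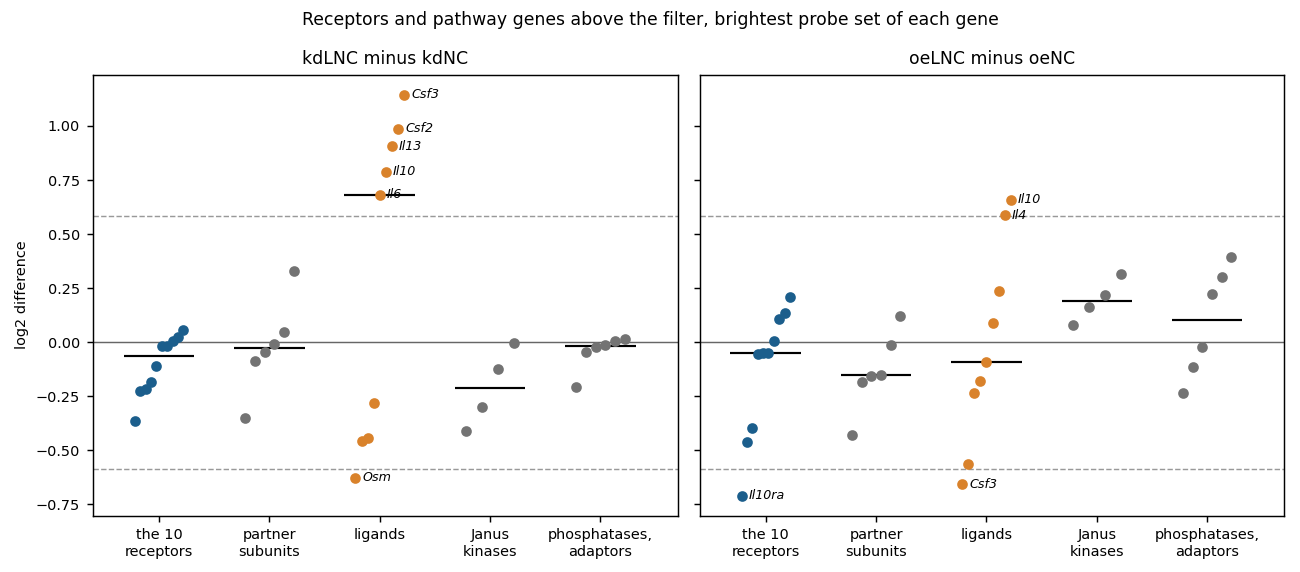
log2 difference (vertical axis) of the 10 receptor genes and the 25 pathway genes past the filter, in the knockdown pair and the overexpression pair. Groups along the horizontal axis are the receptors, partner subunits, ligands, Janus kinases, and phosphatases and adaptors. Each point is a gene at its brightest probe set, black lines are group medians, dashed lines mark 1.5-fold and names are given past it. The median of the 9 ligands drawn is 0.68 in the knockdown pair and -0.090 in the overexpression pair, beside -0.18 and 0.19 over all 14 measured.

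At their brightest probe sets, the 6 partner chains of the receptors that passed the filter stayed under 1.5-fold in both pairs. Ifngr2, which pairs with Ifngr1, gave -0.35 with knockdown and -0.43 with overexpression, Il10rb, which pairs with Il10ra, gave -0.085 and -0.15, and Il3ra gave 0.33 and -0.18. The other probe sets differed: that of Ifngr2 gave 0.22 and -0.16, and that of Il10rb gave 0.38 with knockdown and -0.75, past the threshold, with overexpression. Lifr, a partner of gp130 too dim for the filter, gave -0.16 and 0.97. At the brightest probe sets Ifngr2 and Il10rb were higher on oeNC than on kdNC, by 0.71 and 0.64, as Ifngr1 and Il10ra were. At their brightest probe sets the 4 Janus kinases, which carry the signal of all these receptors but Csf1r, gave -0.41 to -0.0057 with knockdown and 0.080 to 0.32 with overexpression. Their other probe sets past the filter had both signs with knockdown: -0.26 and 0.18 for Jak1, -0.09 for Jak2 and 0.14 for Tyk2. With overexpression these gave 0.43 and 0.33 for Jak1, 0.01 for Jak2 and 0.34 for Tyk2. The 6 phosphatases and adaptors had medians of -0.016 and 0.10. None of these kinases, phosphatases and adaptors was past the threshold in either pair at its brightest probe set.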

How the data were processed

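RNA from 4 cultures was hybridised to Affymetrix mouse whole-genome arrays, 1 array per group. The authors deposited 1 normalised intensity per probe set and array, on a linear scale, and the submitters' processing notes name RMA, with no version or settings given in the sources used here. Signal over background is unknown, and precision is limited by how few arrays there are. Genes were named from GEO's platform annotation, by 34958 of 45101 probe sets with 1 symbol, while 932 with several and 9211 with none were left out. Differences are of log2 intensity. The limma test in the methods cannot be fitted with 1 array per group. All 10 receptors were named at every probe set, and of the 35 pathway genes each one past 1.5-fold in either pair. The members and lists were chosen with earlier results of these data known. Alternatives were median, quantile and loess scaling, the mean of both controls, a 2-fold threshold, a filter at the 70th percentile, on 1 array of a pair or none, leaving out probe sets marked _x_at or _s_at, and averaging a gene's probe sets. Scripts, tested on simulated data, used Python 3.11.15, numpy 2.4.6, pandas 2.3.3, statsmodels 0.14.6 and matplotlib 3.10.9.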

Additional observations from a re-analysis of the deposited data

How the results depend on the processing

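No paired analysis was possible because the groups have a single array, and for the same reason no replicate could be left out. Of 170 receptor differences under the alternatives, all moved by less than the control SD at their level. Some of them could not move at all. No brightest receptor probe set was marked _x_at or _s_at, and averaging leaves a gene with a single probe set unchanged. Still, 18 of the 170 changed sign, all with a size of at most 0.11 as reported. Of these, 7 came with the mean of both control arrays, where Il10ra turned from 0.057 to -0.46 and Ifngr1 from 0.024 to -0.28 with knockdown. That mean shifts a difference in proportion to the control difference, so the limit could fail only where the controls differed by much more than the SD. With that mean, 0 member probe sets were lower in oeLNC in place of 2, and the median knockdown difference of the receptors was -0.22 in place of -0.064. At a 2-fold threshold 0 were lower in oeLNC, and between the controls 1 was higher in place of 3 and 0 lower in place of 1. With the filter at the 70th percentile 1 was lower in oeLNC. The alternatives for the pathway genes were chosen after seeing the data. With the mean of both controls 4 pathway genes were higher with knockdown in place of 5, as Il6 gave 0.39, and 2 were lower, and 0 were higher and 0 lower with overexpression, and the Il10 overexpression difference turned to -0.088 and that of knockdown was 1.53. At 2-fold, 1 pathway gene was higher and 0 lower with knockdown, and 0 were higher and 0 lower with overexpression. With median centring 1 was higher and 2 were lower with overexpression. The cause was not tested.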

Other observations

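A probe set that the annotation gives to both Csf2rb and Csf2rb2, and which the choice by single symbol leaves out, read 6.99 on kdNC, 6.87 on kdLNC, 6.99 on oeNC and 6.90 on oeLNC. Its differences were -0.12 in the knockdown pair and -0.093 in the overexpression pair, small and negative as those of both Csf2rb probe sets. Ifng, the ligand of Ifngr1, was too dim for the filter and read 4.59 on kdNC, 4.43 on kdLNC, 2.83 on oeNC and 3.37 on oeLNC.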
